A study of Homo sapiens with 12 samples.

Results

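The integrated stress response is described here through 10 of its core genes, the transcription factor genes ATF4, ATF3, ATF5, DDIT3, CEBPB and CEBPG and the regulator and effector genes TRIB3, PPP1R15A, CHAC1 and SESN2. They were chosen by name with earlier results of these data known, so counts of them describe this set and are no independent test. They are 10 of 58735 genes listed. All 10 reached 1 FPKM (sequenced fragments scaled to transcript length and library size) in at least 3 libraries and were among the 11856 genes tested. Levels were measured by poly(A) RNA sequencing in HepaRG cells, an established human hepatic line labelled wild type, with 3 libraries in each of 4 groups. The PA+BMS group received 50 µM BMS-309403, which inhibits FABP4, a carrier of fatty acids in cells, for 24 h together with 400 µM deuterium-labelled palmitate for 4 h. PA+OA cells were given that palmitate with 200 µM oleate, a monounsaturated fatty acid. PA cells were given the 400 µM palmitate, a saturated fatty acid, alone for 4 h, and control cells were untreated. No group received oleate or BMS-309403 without palmitate, and whether replicates came from separate cultures is not stated, so p-values measure a spread that may be technical.

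When an eIF2-alpha kinase (PERK, GCN2, PKR or HRI) phosphorylates the translation factor eIF2, most protein synthesis slows while ATF4 mRNA is translated more efficiently through its upstream reading frames. ATF4 protein then pairs with C/EBP factors and activates genes for amino acid supply, redox defence and, through CHOP (the product of DDIT3), cell death, while PPP1R15A and TRIB3 act back on the pathway. Saturated fatty acids are known to set off endoplasmic reticulum stress and this response in liver cells, and oleate is known to lessen it in several cell models. Only mRNA was measured here, so neither eIF2 phosphorylation nor ATF4 protein can be read from these values.

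Libraries totalled 16059128 to 19971190 recovered reads. Several of them stood apart. PA+OA replicate 1 lay at 54.6 and PA+BMS replicate 3 at -51.5 on a first principal component that held 54.4% of the variance and whose gene loadings followed transcript GC content across genes (Spearman's rho 0.68). Control replicate 1 lay at -5.70, against -27.1 and -24.6 for the other controls. Every PA and PA+OA library had a positive value on this component, and every PA+BMS and control library a negative one. The component therefore ran along with treatment. Whether removing a trend with GC content and length, as is done below, also removes treatment effects was not tested. The cells did not carry hepatocyte markers, since 0 of 8 reached 1 FPKM and ALB had no read. KRT7, KRT8 and KRT18, keratins of bile duct and simple epithelium, ranged from 96.5 to 917 FPKM. KRT19, EPCAM and SOX9 of the same list reached at most 0.05, 0.10 and 0.64 FPKM. The summed level of that list, of whose 6 genes 3 reached 1 FPKM, was 372 to 427 FPKM in PA+BMS, 955 to 1739 in PA+OA, 1029 to 1286 in PA and 872 to 1051 in control, and its part in the results was not tested. Summed markers of stellate cells and fibroblasts reached at most 20.7 FPKM, those of macrophages and leukocytes 2.50 and those of endothelium 1.82.

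Core genes were higher in control replicate 1 than in both other controls for 9 of 10, the exception being ATF5, against 38.3% of tested genes. Replicate 1 was at 12.3 times the mean of control replicates 2 and 3 for CHAC1, 7.11 times for SESN2, 4.57 times for DDIT3, 2.66 times for ATF4, 2.37 times for ATF3 and 1.04 to 2.06 times for ATF5, CEBPG, TRIB3, PPP1R15A and CEBPB. It remained below every PA library for all 10 genes. In PA+OA replicate 1, 7 of 10 core genes were higher than in both other PA+OA libraries (45.7% of tested genes). In PA+BMS replicate 3, 9 of 10 were lower than in both other PA+BMS libraries (44.3% of tested genes), with CEBPG the exception. The summed level of the 10 genes was 982, 958 and 678 FPKM in PA+BMS replicates 1, 2 and 3, 2366, 1769 and 1704 in PA+OA, 1099, 1231 and 1118 in PA, and 587, 270.3 and 237 in control. Values are therefore given for every library. In bulk RNA, fewer cells making a transcript and less of it per cell cannot be told apart.

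Upstream stretches of 4 genes are shown because each holds the recognition letters of factors in this set or of their class. RefSeq start sites on GRCh38.p14 gave 19 windows for the 10 genes, each of 250 bases before to 50 after a start. The C/EBP-ATF response element TGATGNAA, searched on both strands, was found in 3 of these 19 windows (1 each of ATF3, CEBPG and CHAC1) and in 3.62% of 35116 windows of all genes. The cyclic AMP response element TGACGTCA was found in 1 of the 19, that of PPP1R15A, and in 1.85% of all windows, and no window of the 10 genes held both. Capitals mark the motif, and CHAC1 carries it on the opposite strand and inside an exon of the GENCODE annotation. The stretches read, 5′ to 3′ on the + strand:
ATF3, chr1:212565157-212565333: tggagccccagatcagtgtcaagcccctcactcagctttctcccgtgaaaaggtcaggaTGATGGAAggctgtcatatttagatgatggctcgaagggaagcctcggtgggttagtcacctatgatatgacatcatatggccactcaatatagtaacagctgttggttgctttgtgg
CEBPG, chr19:33373896-33374112: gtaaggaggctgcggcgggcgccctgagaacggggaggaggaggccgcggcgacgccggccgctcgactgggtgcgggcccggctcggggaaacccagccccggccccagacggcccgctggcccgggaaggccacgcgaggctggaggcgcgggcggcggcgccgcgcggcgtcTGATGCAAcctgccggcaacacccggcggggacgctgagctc
PPP1R15A, chr19:48872171-48872391: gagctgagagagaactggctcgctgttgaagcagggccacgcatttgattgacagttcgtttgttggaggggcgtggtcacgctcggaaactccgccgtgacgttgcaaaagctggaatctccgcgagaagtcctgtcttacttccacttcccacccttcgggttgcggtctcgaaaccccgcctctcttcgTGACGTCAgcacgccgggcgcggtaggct
CHAC1, chr15:40953251-40953280: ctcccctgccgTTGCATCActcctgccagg
The motif starts 191 bases before the start site in ATF3, 42 before the second RefSeq start in CEBPG, 58 before the start in PPP1R15A and 209 before it in CHAC1. A match is a description of letters and not a bound site, and the other 6 genes' windows held neither string.

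ATF4 (ENSG00000128272, chr22:39519695-39522685), the factor at the centre of the response, was at 312, 316 and 221 FPKM in PA+BMS replicates 1, 2 and 3, at 528, 424 and 381 in PA+OA, at 396, 410.2 and 397 in PA, and at 241, 105 and 76.3 in control. Every palmitate-alone library lay above every control, and those 3 libraries were close together. PA+OA libraries overlapped PA, while every PA+BMS library lay below PA and PA+BMS replicate 3 lay below control replicate 1. Group means were 283 ± 53.9 in PA+BMS, 444 ± 75.4 in PA+OA, 401 ± 7.90 in PA and 141 ± 88.0 FPKM in control (SD, n = 3 each).

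DDIT3 (ENSG00000175197, chr12:57516588-57521737, - strand), which encodes CHOP, a factor linked to stress-induced cell death, was at 35.9, 33.7 and 20.0 FPKM in PA+BMS, 113, 122 and 103 in PA+OA, 21.0, 23.7 and 23.4 in PA, and 14.0, 3.68 and 2.43 in control. It set PA+OA apart from the other groups, at 113 ± 9.55 FPKM against 22.7 ± 1.51 in PA (SD, n = 3 each). PA+BMS straddled PA. DDIT3 shares 355 exonic bases with MARS, a tRNA synthetase gene on the opposite strand, and with no strand setting given those reads are uncertain. MARS itself averaged 66.1 in PA+BMS, 86.2 in PA+OA, 90.8 in PA and 52.2 FPKM in control.

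ATF3 (ENSG00000162772, chr1:212565334-212620777), a stress-induced member of the same bZIP class, was at 66.7, 69.9 and 46.3 FPKM in PA+BMS, 120.5, 129 and 117 in PA+OA, 33.0, 41.5 and 34.9 in PA, and 10.03, 4.88 and 3.57 in control. No library of one group reached into another, in the order PA+OA, PA+BMS, PA and control from high to low.

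ATF5 (ENSG00000169136, chr19:49928702-49933935), a relative of ATF4 that is likewise translated under stress, was at 13.03, 13.3 and 10.5 FPKM in PA+BMS, 32.7, 22.5 and 21.2 in PA+OA, 22.1, 22.4 and 20.5 in PA, and 16.2, 16.6 and 14.5 in control. PA+OA overlapped PA, PA lay above control, and PA+BMS lay below control as well as PA. ATF5 shares 626 exonic bases with NUP62, a nuclear pore gene on the opposite strand, which averaged 21.7 in PA+BMS, 21.7 in PA+OA, 26.1 in PA and 26.0 FPKM in control, so the origin of shared reads is uncertain.

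CEBPB (ENSG00000172216, chr20:50190734-50192689), a C/EBP factor that partners ATF4, was at 168, 157 and 98.3 FPKM in PA+BMS, 353, 266 and 283 in PA+OA, 180.1, 233 and 205 in PA, and 139.7, 70.8 and 64.9 in control. PA+OA lay above PA, PA above PA+BMS and control, and control replicate 1 fell within the PA+BMS range. CEBPG (ENSG00000153879, chr19:33373330-33382686), a C/EBP protein that also pairs with ATF4, was at 16.7, 16.5 and 18.3 FPKM in PA+BMS, 12.6, 16.7 and 15.8 in PA+OA, 9.24, 10.4 and 11.6 in PA, and 8.91, 6.22 and 5.90 in control. CEBPG alone among the 10 had its highest mean in PA+BMS, at 17.2 ± 1.02, against 15.0 ± 2.19 in PA+OA, 10.4 ± 1.17 in PA and 7.01 ± 1.65 FPKM in control (SD, n = 3 each), with PA+BMS and PA+OA overlapping.

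**Figure D1:**
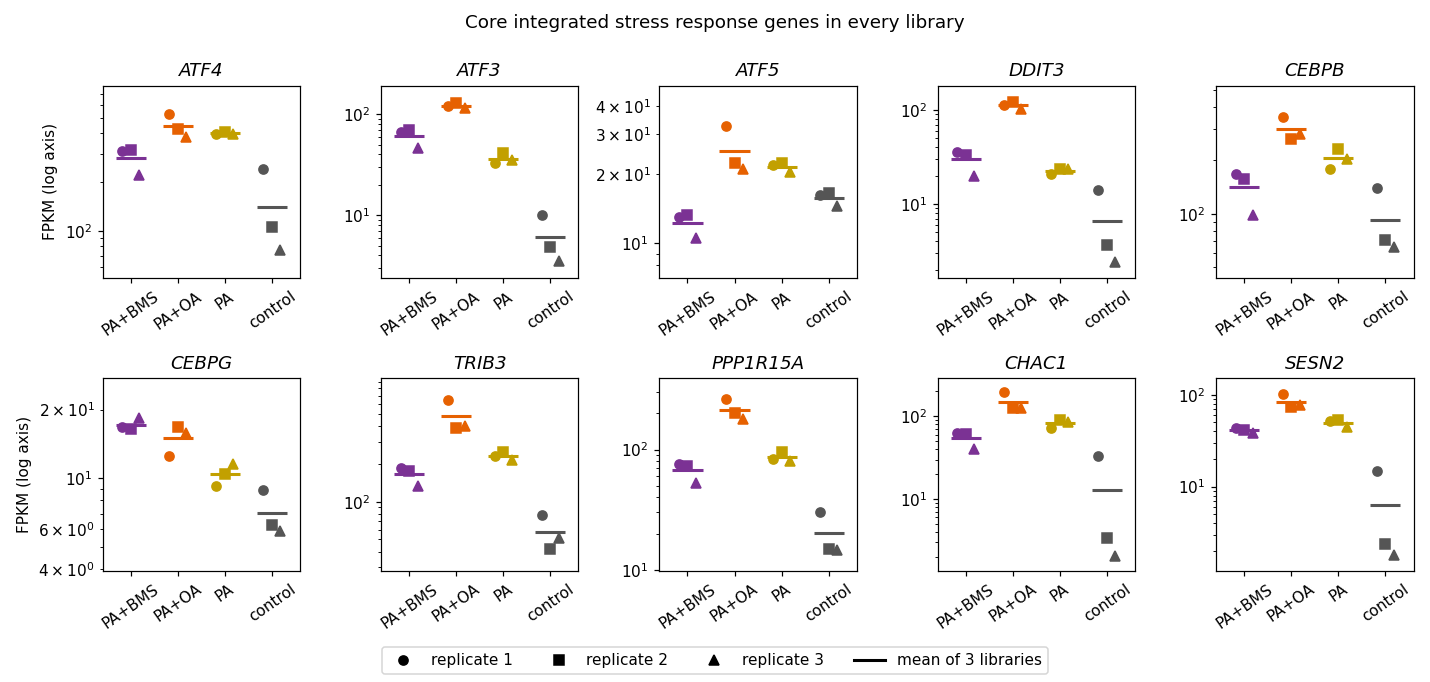
Level of each core gene (FPKM, log axis with its own range per gene) in every library, by group from left to right PA+BMS, PA+OA, PA and control. Point shapes mark the replicate and bars the mean of 3 libraries. Control replicate 1 is above the other controls for 9 genes and below every PA library for all 10.

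TRIB3 (ENSG00000101255, chr20:362835-397559), a pseudokinase induced by ATF4 and CHOP that dampens both, was at 187, 176 and 133 FPKM in PA+BMS, 648, 388 and 401 in PA+OA, 231, 251 and 217 in PA, and 78.8, 42.3 and 50.9 in control. The 4 groups did not overlap, and PA+OA replicate 1 was far above its own group. PPP1R15A (ENSG00000087074, chr19:48872392-48876057), known as GADD34, directs a phosphatase to eIF2-alpha and so ends the response. It was at 75.3, 72.9 and 53.0 FPKM in PA+BMS, 263, 203 and 179 in PA+OA, 82.8, 95.3 and 80.7 in PA, and 30.5, 15.0 and 14.7 in control, again with no overlap between groups.

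CHAC1 (ENSG00000128965, chr15:40952962-40956519), which degrades glutathione and is induced by ATF4, was at 63.5, 61.4 and 40.3 FPKM in PA+BMS, 194, 125 and 126 in PA+OA, 71.8, 90.6 and 84.6 in PA, and 33.4, 3.38 and 2.04 in control. Its controls had an SD of 17.7 around a mean of 12.9 FPKM, the widest control spread of the 10 genes relative to the mean. SESN2 (ENSG00000130766, chr1:28259527-28282491), a stress-induced inhibitor of mTORC1 signalling, was at 43.5, 41.3 and 38.2 FPKM in PA+BMS, 102, 73.2 and 77.9 in PA+OA, 51.4, 53.1 and 44.7 in PA, and 14.9, 2.37 and 1.82 in control. Groups did not overlap for either gene, and PA+BMS lay next to PA.

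Core genes of the response were higher after palmitate alone, with CHAC1 and SESN2 moving most and ATF5 least. Against control, 9 of 10 core genes rose in PA (limma on log2(FPKM + 1), adjusted p under 0.05 over all 11856 tested genes) and 0 fell, where 12.8% of tested genes rose and 27.6% changed in either direction. At an unadjusted p under 0.05, 10 were higher and 0 lower, and by voom 8 rose and 0 fell (7.08% and 21.8% of tested genes). All 10 were higher in every PA library than in every control and 0 were lower, where 31.3% of tested genes were higher and 29.3% lower. The median log2 change was 1.99, against 0.03 over all tested genes. Log2 changes come from log2(FPKM + 1), where the added 1 makes them smaller for genes of low level. They are differences between group means of log values. They can therefore exceed the ratio of mean FPKM, as for CHAC1 and SESN2 below.

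CHAC1 rose by 3.43 (SE 0.66, limma adjusted p = 0.00594), with a mean 6.36 times that of control, and SESN2 by 3.25 (SE 0.47, adjusted p = 0.00170), with a mean 7.80 times that of control. Both sizes depended on control replicate 1: without it the log2 changes were 4.51 and 4.03, and that of DDIT3 below was 2.56. ATF3 rose by 2.48 (SE 0.26, limma adjusted p = 0.000278), PPP1R15A by 2.13 (SE 0.25, adjusted p = 0.000530), TRIB3 by 2.05 (SE 0.24, adjusted p = 0.000570) and DDIT3 by 1.93 (SE 0.41, adjusted p = 0.00912). ATF4 itself rose by 1.68 (SE 0.33, limma adjusted p = 0.00622), to 401 ± 7.90 in PA against 141 ± 88.0 FPKM in control (SD, n = 3 each), and by 2.15 without control replicate 1. CEBPB rose by 1.24 and CEBPG by 0.53 (limma adjusted p = 0.0111 and 0.0272), and both lost the call without control replicate 2 or 3 or PA replicate 2, CEBPG also without PA replicate 3 (highest adjusted p 0.0574 and 0.112). ATF5, at 0.43, missed the threshold (limma adjusted p = 0.0523, 95% interval 0.10 to 0.77), and it passed without PA+OA replicate 1 or 3 or PA+BMS replicate 3 (lowest adjusted p 0.00687). GC content and length accounted for 43.3% of the variance of all genes' log2 changes here. After each library's dependence on GC content and length was taken out, 9 still rose, where 6.85% of tested genes did, and ATF5 was at 0.04. ATF3 and CEBPG were then larger, at 2.54 and 0.74, and the other core genes smaller, with ATF4 at 1.32 and CEBPB at 0.87.

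With oleate added to palmitate, DDIT3 and ATF3 were several times higher than after palmitate alone, while ATF4 averaged 444 ± 75.4 in PA+OA and 401 ± 7.90 FPKM in PA (SD, n = 3 each). Of 10 core genes, 4 rose in PA+OA against PA and 0 fell by limma, where 4.01% of tested genes rose, 3.91% fell and 7.91% changed. At an unadjusted p under 0.05, 5 were higher and 0 lower, and by voom 4 rose and 0 fell (3.65% and 3.12% of tested genes). DDIT3 rose by 2.26 (SE 0.41, limma adjusted p = 0.00550), ATF3 by 1.72 (SE 0.26, adjusted p = 0.00230), PPP1R15A by 1.29 (SE 0.25, adjusted p = 0.00795) and TRIB3 by 0.998 (SE 0.24, adjusted p = 0.0275). The PA+OA means were 4.96, 3.34, 2.49 and 2.06 times those of PA for these genes. TRIB3 lost its call when any PA library was left out (adjusted p up to 0.0938).

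In all, 8 core genes were higher in every PA+OA library than in every PA library, where 13.3% of tested genes were. Of these, CHAC1, SESN2, CEBPB and CEBPG had log2 changes of 0.82, 0.74, 0.54 and 0.49 and did not pass (limma adjusted p = 0.562, 0.437, 0.303 and 0.0740). ATF4 and ATF5 overlapped between the groups, with a log2 change for ATF4 of 0.13 (95% interval -0.58 to 0.84, limma adjusted p = 0.889) and for ATF5 of 0.20 (adjusted p = 0.539). The core median was 0.78, against -0.002 over all tested genes. The spread is pooled over the 4 groups, so control replicate 1 enters it here too: without that library 6 of 10 rose, where 3.8% of tested genes did, SESN2 (adjusted p = 0.0101) and CEBPG (adjusted p = 0.0409) being added. CEBPG also passed without PA+OA replicate 1 (adjusted p = 0.0213). Removing the GC and length trend left 4 called, where 13.4% of tested genes changed.

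Levels were also set against ATF4 of the same library, a ratio in which a library-wide scale cancels but a GC trend does not. DDIT3 stood at 10.4% ± 1.23 of the ATF4 level in PA+BMS, 25.7% ± 3.76 in PA+OA, 5.66% ± 0.327 in PA and 4.16% ± 1.42 in control (SD, n = 3 each, both genes per length). ATF3 stood at 21.5% ± 0.595 in PA+BMS, 27.9% ± 4.41 in PA+OA, 9.08% ± 0.921 in PA and 4.50% ± 0.288 in control. Every PA+OA and PA+BMS library was above every PA library for both genes, and every PA+OA library above every PA+BMS library.

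TRIB3 was at 58.5% ± 2.54 of ATF4 in PA+BMS, 107% ± 15.6 in PA+OA, 58.0% ± 3.32 in PA and 46.6% ± 17.9 in control. PPP1R15A was at 23.7% ± 0.570 in PA+BMS, 48.2% ± 1.51 in PA+OA, 21.5% ± 1.54 in PA and 15.4% ± 3.50 in control. CHAC1 was at 19.3% ± 1.04 in PA+BMS, 33.2% ± 3.59 in PA+OA, 20.5% ± 2.10 in PA and 6.59% ± 6.31 in control. SESN2 was at 14.8% ± 2.25 in PA+BMS, 19.0% ± 1.61 in PA+OA, 12.4% ± 0.982 in PA and 3.61% ± 2.23 in control. For TRIB3, PPP1R15A, CHAC1 and SESN2 the PA+OA libraries were highest without overlap with PA or PA+BMS, except that SESN2 of PA+BMS replicate 3, at 17.3%, lay just above the lowest PA+OA library. CEBPB was at 49.3% ± 4.59 in PA+BMS, 68.0% ± 5.84 in PA+OA, 51.3% ± 5.70 in PA and 70.1% ± 13.8 in control. CEBPG was at 6.29% ± 1.75 in PA+BMS, 3.49% ± 0.971 in PA+OA, 2.60% ± 0.298 in PA and 5.78% ± 2.03 in control. ATF5 was at 4.38% ± 0.325 in PA+BMS, 5.69% ± 0.462 in PA+OA, 5.40% ± 0.203 in PA and 13.9% ± 6.41 in control, and for these 3 genes every PA library lay below every control relative to ATF4. These percentages carry no test.

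**Figure D2:**
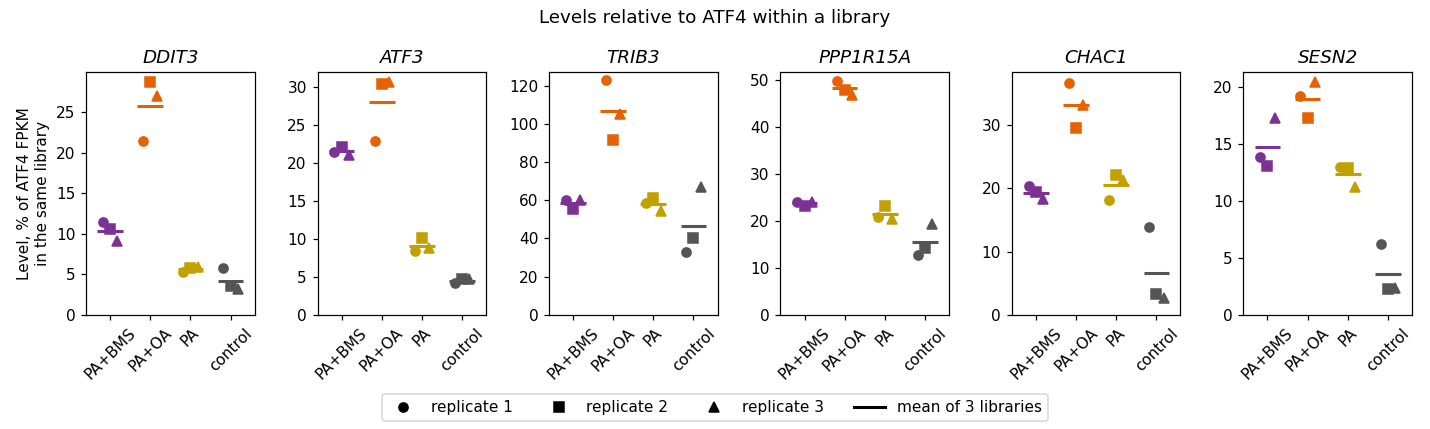
Level of 6 core genes as a percentage of the ATF4 FPKM of the same library (linear axis from 0), by group from left to right PA+BMS, PA+OA, PA and control, with shapes for replicates and bars for means of 3 libraries. DDIT3 averages 25.7% in PA+OA and 5.66% in PA, and ATF3 is above 20% in every PA+OA and PA+BMS library.

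BMS-309403 with palmitate gave a mixed picture against palmitate alone. ATF3 rose by 0.71 (SE 0.26, limma adjusted p = 0.0392), CEBPG rose by 0.67 (SE 0.15, adjusted p = 0.00685) and ATF5 fell by 0.78 (SE 0.15, adjusted p = 0.00470). These are 2 rises and 1 fall of 10, where 25.2% of tested genes rose, 29.4% fell and 54.5% changed, so the share called was below the background. The summed bile duct and epithelial markers, of which only KRT7, KRT8 and KRT18 reached 1 FPKM, were lower in PA+BMS as well. They were at 372 to 427 against 1029 to 1286 FPKM in PA, and their part in this result was not tested. Of the core genes 2 were higher in every PA+BMS library than in every PA library and 7 were lower (32.8% and 36.7% of tested genes), with DDIT3 overlapping. The core median was -0.44, against -0.04 over all tested genes. The core genes' mean levels lay at the 70.1 to 99.1 percentile of tested genes. Over genes of at least 5 FPKM in 3 libraries the median was -0.26, and 21.2% rose and 43.4% fell. ATF3 lost its call without PA replicate 1, 2 or 3 or PA+BMS replicate 1 or 2 (adjusted p up to 0.111).

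The 6 genes that were lower without passing had log2 changes of -0.59 for CHAC1, -0.57 for CEBPB, -0.52 for ATF4, -0.51 for TRIB3, -0.37 for PPP1R15A and -0.27 for SESN2 (limma adjusted p = 0.454, 0.0943, 0.186, 0.0942, 0.219 and 0.638). The 95% interval of ATF4 ran from -1.23 to 0.19. GC content and length accounted for 55.7% of the variance of all genes' log2 changes in this comparison, and 8 of 10 core genes lie above the median GC content of tested genes. By voom 2 rose and 1 fell, where 35.2% and 14.7% of tested genes did. The voom fit takes library size from recovered reads, and its median over all tested genes was 0.21, against -0.04 by limma on FPKM. PA and PA+BMS libraries had opposite signs on the first principal component. Removing the GC and length trend may therefore also remove a treatment difference, which was not tested. With the GC and length trend removed, 0 core genes passed by limma, where 23.2% of tested genes did (2 higher and 1 lower at an unadjusted p under 0.05). ATF4 was at -0.01, CEBPB, TRIB3, PPP1R15A, CHAC1 and SESN2 turned to 0.03 to 0.27, ATF3 was at 0.61 (adjusted p = 0.117), CEBPG at 0.39 (adjusted p = 0.0710) and ATF5 at -0.20 (adjusted p = 0.0799). Without control replicate 1, and with no such removal, 6 passed: ATF3 and CEBPG rose, and ATF5, ATF4, CEBPB and CHAC1 fell (highest adjusted p 0.0455), where 53% of tested genes changed. TRIB3 passed as a fall without PA+OA replicate 1 (adjusted p = 0.0479).

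**Figure D3:**
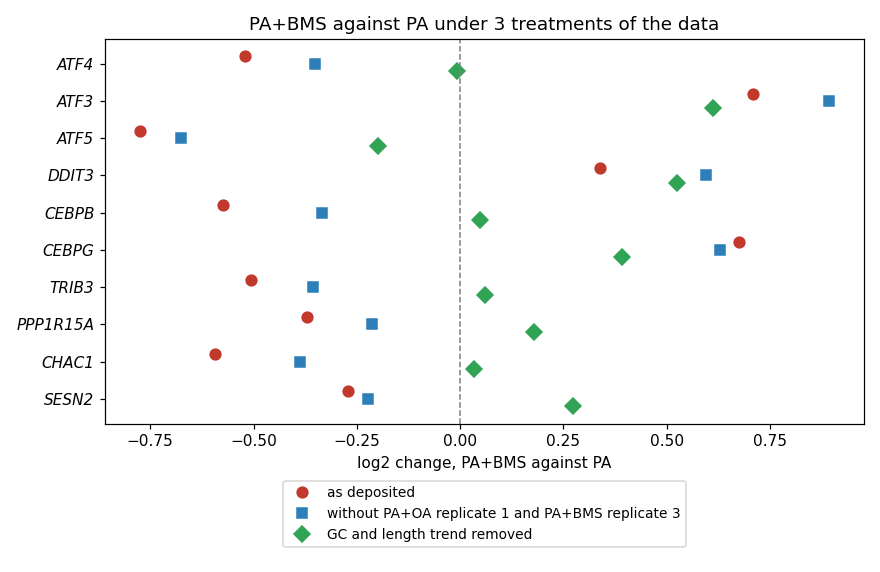
Log2 change of each core gene in PA+BMS against PA on the log2(FPKM + 1) scale, from the deposited values (circles), with PA+OA replicate 1 and PA+BMS replicate 3 left out (squares), and after removal of the GC and length trend (diamonds). ATF3 and CEBPG stay to the right of 0 and ATF5 to the left in all 3, while ATF4 moves to -0.01 and PPP1R15A to 0.18 with the trend removed.

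**Figure D4:**
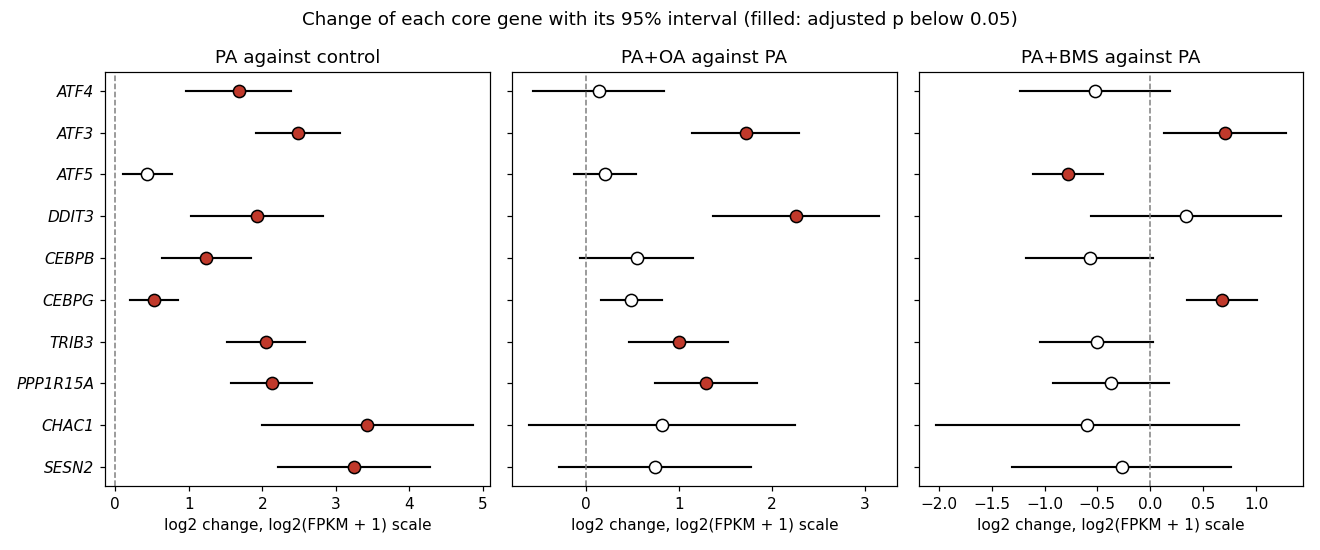
Log2 change of each core gene with its 95% interval (log2(FPKM + 1) scale), in 3 panels: PA against control, then PA+OA against PA, then PA+BMS against PA. Filled points have an adjusted p under 0.05 by limma, which holds for 9, 4 and 3 genes.

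The remaining comparisons share libraries with those above and give no independent evidence. Against control, all 10 core genes rose in PA+OA (17.5% of tested genes rose, 18.8% fell and 36.3% changed), every PA+OA library above every control (23.3% of tested genes were so and 26.3% the other way), with a median of 3.23, from 0.63 for ATF5 to 4.25 for CHAC1. ATF3 reached 19.8 times and DDIT3 16.8 times the control mean. Of 10 core genes 8 rose in PA+BMS against control (4.77% of tested genes rose, 6.25% fell and 11.0% changed). In 7 every PA+BMS library lay above every control and in 1 below (16.7% and 19.2% of tested genes). The PA+BMS mean was 9.90 times that of control for ATF3, 6.43 times for SESN2, 4.46 times for DDIT3 and 2.45 times for CEBPG. Without control replicate 1 the log2 changes of CHAC1, SESN2 and DDIT3 were 3.91, 3.76 and 2.90 in PA+BMS and 5.32, 4.77 and 4.82 in PA+OA.

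The calls in PA+BMS against control left out CEBPB and ATF5. CEBPB was at 0.66 (limma adjusted p = 0.153; 0.0239 without control replicate 1) and ATF5 at -0.34 (adjusted p = 0.18; 0.0343 without PA+OA replicate 1), every PA+BMS library of ATF5 lying below every control. ATF4 rose by 1.16 (limma adjusted p = 0.0405) although its libraries overlapped control, and of 12 fits that each left out a library it kept this call in 4, those without control replicate 1, PA+OA replicate 1 or 3 or PA+BMS replicate 3 (highest adjusted p 0.154). CHAC1 kept its call in 8 of 12, losing it without control replicate 2 or 3 or PA+BMS replicate 1 or 2 (highest adjusted p 0.0725). With the GC and length trend removed 9 of 10 rose and 0 fell by limma, where 9.66% of tested genes rose and 9.58% fell. CEBPB was then at 0.92 and ATF4 at 1.31 (limma adjusted p = 0.00688 and 0.00558). ATF5, at -0.16, did not pass (adjusted p = 0.168). Against PA+OA, 6 core genes fell in PA+BMS and 0 rose, also at an unadjusted p under 0.05, where 26.4% of tested genes fell, 23.1% rose and 49.6% changed by limma. By voom 6 fell and 0 rose as well, where 16.7% and 33.9% of tested genes did. The log2 changes were -1.92 for DDIT3, -1.66 for PPP1R15A, -1.505 for TRIB3, -1.12 for CEBPB, -1.01 for ATF3 and -0.97 for ATF5 (limma adjusted p 0.00104 to 0.0114). In 9 genes every PA+BMS library lay below every PA+OA library and in 0 above (31.4% and 28.1% of tested genes). CHAC1, SESN2 and ATF4 were lower in every library without passing (adjusted p = 0.0897, 0.0921 and 0.109; 0.00199, 0.00115 and 0.0183 without control replicate 1), and CEBPG overlapped. ATF3 lost its call without PA+BMS replicate 3 (adjusted p = 0.0509). GC content and length accounted for 43.5% of the variance of all genes' log2 changes here. With that trend removed CEBPB lost its call (-0.44, adjusted p = 0.0972), and ATF5 was at -0.43, TRIB3 at -0.99, PPP1R15A at -1.15, DDIT3 at -1.64 and ATF3 at -1.08, each still called.

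Ordered by level, ATF4, CEBPB, TRIB3, PPP1R15A, CHAC1 and SESN2 ran PA+OA, PA, PA+BMS and control from high to low, and none of the 6 passed between PA and PA+BMS. Of them TRIB3 and PPP1R15A passed between PA+OA and PA, and all but CEBPB passed between PA+BMS and control, ATF4 with overlapping libraries. ATF3 and DDIT3 ran PA+OA, PA+BMS, PA and control, and PA+BMS passed against PA for ATF3 but overlapped it for DDIT3. ATF5 ran PA+OA, PA, control and PA+BMS, and no pair of neighbours in that order passed. CEBPG ran PA+BMS, PA+OA, PA and control, where PA and control were the pair of neighbours that passed.

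Across the 12 libraries, Pearson's r of log2(FPKM + 1) was 0.85 to 0.99 over the 28 pairs of the 8 core genes other than ATF5 and CEBPG. CEBPG followed these 8 at 0.55 (CEBPB) to 0.88 (ATF3), and ATF5 followed them at 0.35 (ATF3) to 0.73 (CEBPB). The lowest of all 45 pairs was ATF5 with CEBPG, at -0.11. These values describe 12 libraries that share groups, depth and GC trend. ATF4 followed CHAC1 at 0.99 and SESN2 at 0.97, while ATF3 followed DDIT3 at 0.96 and ATF4 at 0.87. Outside the set, the protein-coding genes most like the mean of the core genes were BBC3, which encodes the pro-death protein PUMA, at 0.99, then TMEM79, ADM2 and RNF41 at 0.98 and CLK3 at 0.97. Most like ATF4 alone were DDIT4, an mTORC1 inhibitor, at 0.99, and PRKAB1, an AMPK subunit, and ADM2, a secreted peptide, at 0.98. BBC3 averaged 4.87 ± 0.693 in PA+BMS, 8.20 ± 2.38 in PA+OA, 5.62 ± 0.769 in PA and 1.59 ± 1.15 FPKM in control (SD, n = 3 each).

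Of 42 further targets of ATF4 and CHOP, 41 were tested, ALDH1L2 being too low. In PA against control 24 rose and 4 fell, where 12.8% of tested genes rose and 14.8% fell, with a median log2 change of 0.55. HERPUD1, of endoplasmic reticulum-associated degradation, rose by 1.48, ADM2 by 1.90, ASNS, asparagine synthetase, by 0.77, and STC2, a secreted glycoprotein, by 1.88 (limma adjusted p 0.00113 to 0.00210). By role, 7 of 8 genes for secreted proteins and receptors, 6 of 9 for amino acid and folate enzymes and 3 of 6 for amino acid transporters rose, while of 8 for tRNA charging and export 2 rose and 3 fell. The count that rose was 11 and 13 without control replicates 2 and 3 and 15 and 14 without PA replicates 1 and 2. In these fits 2.95%, 3.8%, 4.7% and 3.36% of tested genes rose. The count that fell was 0 and 1 and 2 and 0 in the same fits, where 3.75%, 4.65%, 7.49% and 4.19% of tested genes fell. Once the GC and length trend was removed, 21 rose and 2 fell, where 6.85% and 9.6% of tested genes did.

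In PA+OA against PA, 6 of the 41 targets rose and 1 fell (median 0.30), where 4.01% of tested genes rose and 3.91% fell. HERPUD1 rose by 2.20, to 193 ± 8.30 in PA+OA against 41.2 ± 2.66 FPKM in PA (SD, n = 3 each, limma adjusted p = 6.43e-05). ASNS rose by 1.003, FGF21, a stress hormone of the liver, by 1.77, and CTH, a cysteine-making enzyme, by 0.81 (adjusted p 0.000299 to 0.00238). The single fall was absent without PA replicate 1 or 3, where 1.82% and 2.55% of tested genes fell. Among the targets 11 rose and 12 fell in PA+BMS against PA (median -0.10), shares near the 25.2% and 29.4% of all tested genes. With the GC and length trend removed 4 rose and 5 fell, where 11.2% and 12% of all genes did. WARS, a tRNA synthetase, fell by 0.72, while VLDLR, a lipoprotein receptor, rose by 0.64, NARS, another tRNA synthetase, by 0.74 and XPOT, a tRNA exporter, by 1.06 (adjusted p 0.00113 to 0.00454). With the trend kept, the counts in PA+BMS against PA were 7 and 7 without PA+BMS replicate 3, where 14.2% of tested genes rose and 17.1% fell. Without PA replicate 2, 6 rose, where 14% of tested genes did.

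The eIF2 kinases, eIF2, eIF2B and phosphatase genes, 20 in all and all tested, moved in both directions in PA against control, with 6 rises and 6 falls (median -0.14), where 12.8% of tested genes rose and 14.8% fell. EIF2AK2, which encodes PKR, fell by 0.73 and PPP1CC, a phosphatase catalytic subunit, fell by 0.57, while EIF2B5, of the eIF2 exchange factor, rose by 0.51 and DELE1, a mitochondrial stress relay, by 0.47 (limma adjusted p 0.0181 to 0.0236). These counts did not hold, and calls over all tested genes fell in the same fits from 27.6%. Neither direction had a call without control replicate 2 or 3 or PA replicate 2, where 6.71%, 8.45% and 7.55% of tested genes changed. Without PA replicate 1 there were 0 rises and 3 falls (12.2% of tested genes changed) and without PA replicate 3 there were 2 and 2 (17%). Once the trend was removed there were 1 and 1 (16.4%). In PA+OA against PA, 0 of the 20 passed by limma, where 7.91% of tested genes changed (1 higher and 1 lower at an unadjusted p under 0.05). By voom 1 fell, where 3.12% of tested genes did. When PA+BMS replicate 3 or replicate 1 of PA+OA was left out, 1 rose and 1 fell, where 9.87% and 16.4% of tested genes changed. The smallest limma adjusted p with all libraries was 0.0591 for GCN1, the activator of GCN2, at -0.59. With BMS-309403 and palmitate against palmitate alone, 8 of the 20 rose and 5 fell, where 54.5% of tested genes changed (25.2% rose and 29.4% fell). EIF2AK4, which encodes GCN2, rose by 0.82 and PPP1CC by 0.66, while log2 changes were -0.72 for EIF2B2 and -0.62 for EIF2B5, of the exchange factor (limma adjusted p 0.00516 to 0.00681). Once the trend was removed there were 3 rises and 4 falls, where 11.2% of tested genes rose and 12% fell. Without PA replicate 2 or PA+BMS replicate 3 the rises were 5, where 14% and 14.2% of tested genes rose, and without PA replicate 1 the falls were 3, where 20.7% fell.

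Paralogs of the core genes had calls in both directions. Of 17, 12 were tested, BATF, BATF2, CEBPE, TRIB2 and SESN3 being too low. In PA against control JDP2, an ATF3 relative, rose by 0.94, while log2 changes were -0.64 for CHAC2, -0.65 for ATF1 and -0.53 for ATF2 (limma adjusted p 0.00542 to 0.0215), with 2 rises and 3 falls in all and a median of 0.03, where 12.8% of tested genes rose and 14.8% fell. In PA+OA against PA, CEBPA, a liver C/EBP factor, rose by 0.92, to 8.15 ± 2.71 in PA+OA against 3.73 ± 0.401 FPKM in PA (SD, n = 3 each, limma adjusted p = 0.00479), the only call, where 7.91% of tested genes changed. In PA+BMS against PA, 4 rose and 2 fell, where 54.5% of tested genes changed, among them ATF2 by 0.68, ATF6 by 0.55 and SESN1 by 0.43 as rises and ATF6B at -0.49 as a fall (adjusted p 0.00536 to 0.0236). Several of these small counts changed by over 1.5 times when 1 library was left out. The rises in PA against control were 0 without control replicate 2 or 3 or PA replicate 1 or 2, where 2.95% to 4.7% of tested genes rose. They were 1 when PA replicate 3 or replicate 2 of PA+BMS or PA+OA was left out (7.89% to 11.7% of tested genes rose), and 4 without PA+OA replicate 1 (23.9%). In PA+OA against PA there were 2 rises when PA+BMS replicate 3 or replicate 1 of PA+OA was left out (5.28% and 6.82% of tested genes rose), and 1 fall without control replicate 1 (3.58% fell). In PA+BMS against PA the rises were 2 and the falls 0 without PA replicate 2 or PA+BMS replicate 3, where 14% and 14.2% of tested genes rose and 17.1% fell in each. There 1 fell with any 1 control library left out, or PA replicate 1 or 3, replicate 1 of PA+BMS or replicate 2 of PA+OA, where 20.7% to 28.5% of tested genes fell.

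**Figure D5:**
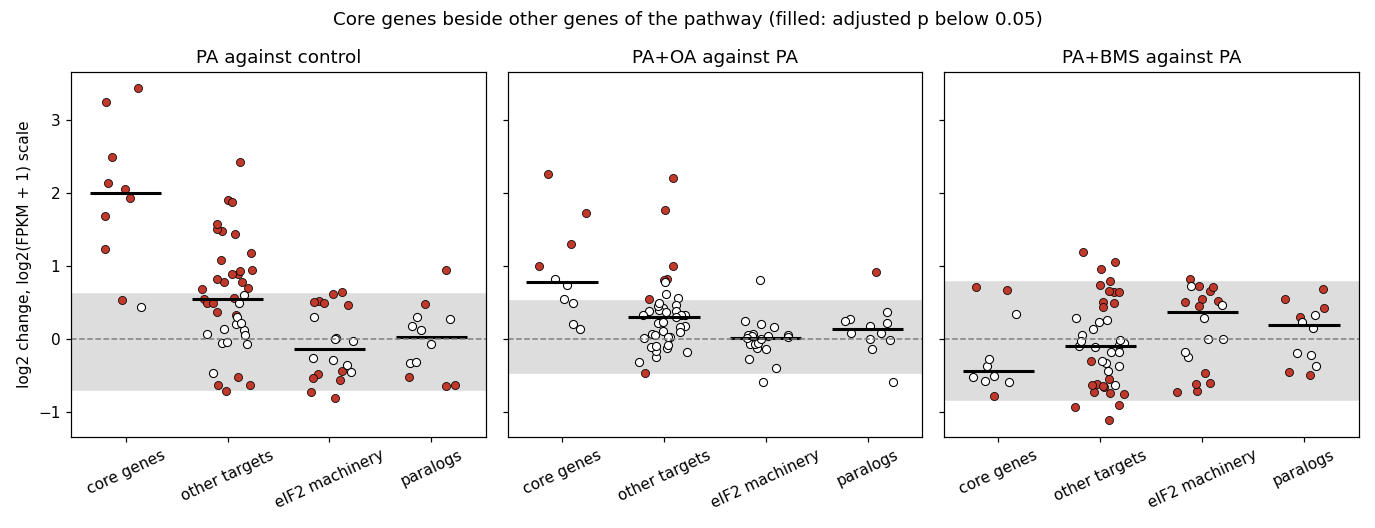
Log2 change (log2(FPKM + 1) scale) of each tested gene in 4 lists, the 10 core genes, 41 other targets, 20 genes of the eIF2 machinery and 12 paralogs, in 3 panels: PA against control, then PA+OA against PA, then PA+BMS against PA. Bars are list medians, filled points have an adjusted p under 0.05 by limma, and the grey band holds the 5th to 95th percentile of all tested genes. In PA against control the core median is 1.99, the targets' 0.55, the machinery's -0.14 and the paralogs' 0.03.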

How the data were processed

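Poly(A) RNA of 12 HepaRG libraries was sequenced as read pairs, per the labels' protocols. The deposited values are FPKM from the authors. Software listed in the submitters' processing notes is featureCounts 1.5.0-p3, HISAT2 2.0.5 and CASAVA, with no roles given, and the strand setting is not given in the sources used here. Gene identifiers and symbols equalled GENCODE 29 on GRCh38. FPKM times gene length was divided by its smallest value above 0 in each library, which was taken as a single read. This gave whole reads for 100% of values above 0 (tolerance 0.001), used for depth and as an alternative with voom.

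Log2(FPKM + 1) of genes with at least 1 FPKM in 3 libraries was fitted in R 4.3.3 by limma 3.58.1 to all libraries at once, each group having its own coefficient (8 residual degrees of freedom, trended eBayes). Two-sided p-values were adjusted by Benjamini-Hochberg over all tested genes in each comparison, with a threshold of 0.05. Intervals are 95%. Named genes are the 10 core genes, the 4 members of each other list with the smallest p in a comparison, the 5 genes most like the core mean and the 3 most like ATF4; not every gene this rule reaches in every comparison is described. The members and lists were chosen with earlier results of these data known. No pair of replicates agreed within sampling noise (chi-square per gene 3.99 to 89.6). Alternatives changed the pseudocount (0.1), filter (none, or 5 FPKM), scaling, spread, weights, GC and length trend (splines with 5 degrees of freedom), replicate block and libraries used. The fit was tested on simulated counts with a fixed dispersion, no GC trend and no library set apart. That test cannot show how the fit behaves with those features of these data. Only for PA+OA and control were all 3 same-number correlations over 0.1 (0.16 to 0.49). Control replicate 2 nevertheless matched PA+OA replicate 3 (0.40) better than PA+OA replicate 2 (0.27). The best match had the own number in 4 of 6 libraries there, as for PA+BMS with control and with PA+OA. Replicate numbers were therefore not taken as pairs, judged from these data alone. Python 3.11.15 and matplotlib 3.10.9 made the figures.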

Additional observations from a re-analysis of the deposited data

How the results depend on the processing

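Of the 40 calls of core genes over the 6 comparisons, 30 held under all 26 alternatives. The exceptions were CEBPB and CEBPG in PA against control, TRIB3 in PA+OA against PA, ATF3, ATF5 and CEBPG in PA+BMS against PA, ATF4 and CHAC1 in PA+BMS against control, and ATF3 and CEBPB in PA+BMS against PA+OA. One alternative was chosen after seeing the data, leaving out control replicate 1, PA+OA replicate 1 and PA+BMS replicate 3 together, which gave 8 called core genes in PA+OA against PA, against 4, and 8 in PA+BMS against PA, against 3. The share of all tested genes called was then 32.3%, against 7.91%, in PA+OA against PA and 59.1%, against 54.5%, in PA+BMS against PA. Of the 41 other targets, 28 then rose and 5 fell in PA against control, 17 and 4 in PA+OA against PA and 12 and 14 in PA+BMS against PA, where 32.3% and 29%, 14% and 18.3%, and 27.1% and 32.1% of all tested genes did. In PA+BMS against PA the count was 6 with only the 2 groups compared (55.9% of all tested genes called), 5 with precision weights (69.3%; their estimate stopped before it converged), 0 with the GC and length trend removed, with the replicate block (29.1%) or without it (23.2%), and 6 without control replicate 1 (53%). With each library left out in turn the called core genes numbered 7 to 10 in PA against control, 3 to 6 in PA+OA against PA, 2 to 6 in PA+BMS against PA, 10 in PA+OA against control, 6 to 9 in PA+BMS against control and 5 to 9 in PA+BMS against PA+OA. In the same order, the share of all tested genes called ran from 6.71% to 45%, 3.99% to 16.4%, 31.1% to 62.5%, 21% to 42.4%, 5.52% to 19.7% and 25.4% to 53.1%.

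Directions turned only for log2 changes that had not passed, and the cause was not tested. In PA+BMS against PA these were ATF4 (0.0848 with quantile normalization), CEBPB (0.0495 with the trend removed), TRIB3 (0.0744 with quantile normalization, 0.0607 with the trend removed), PPP1R15A (0.00402 with library totals set equal, 0.0834 with quantile normalization, 0.18 with the trend removed), CHAC1 (0.0327 with the trend removed) and SESN2 (0.10 with totals equal, 0.13 with quantile normalization, 0.27 with the trend removed). In PA+BMS against PA+OA, CEBPG was at -0.00352 with precision weights and -0.0183 with the trend removed. The trend-removed values were the same with the replicate block. Setting totals equal moved the median of all tested genes by -0.21 in PA against control and 0.28 in PA+BMS against PA.

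The replicate block gave 10, 4, 4, 10, 8 and 7 called core genes in the 6 comparisons (PA against control, PA+OA against PA, PA+BMS against PA, PA+OA against control, PA+BMS against control and PA+BMS against PA+OA), against 9, 4, 3, 10, 8 and 6 without it. The share of all tested genes called was 39.2%, 9.61%, 59.7%, 44.2%, 14.4% and 55.3% with it, against 27.6%, 7.91%, 54.5%, 36.3%, 11.0% and 49.6% without it. Same-numbered libraries deviated together in 9 of 18 pairs (correlations -0.28 to 0.56), so the numbers are not taken as pairs. In PA+OA against control the block changed no core call. With 3 libraries a group, 16059128 to 19971190 reads in each and reads of low control genes such as DDIT3 numbering as few as 53, every pair of replicates differed by more than sampling noise.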
